A study of Mus musculus with 20 samples.

Results

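Distal elements that carried H3K27 acetylation in adult but not in fetal hematopoietic stem cells (HSCs) were described from 8 lists of ChIP-seq peaks. They were chosen by rule. H3K4me1 and H3K27ac peaks of both stages on chromosomes 1 to 19 were merged where they shared at least 1 bp, and merged regions that overlapped an H3K4me3 peak of either stage were dropped. Of the 56996 distal elements left, 927 overlapped an adult H3K27ac peak and no fetal one, which is 1.63% of all distal elements. They made up 21.7% of the 4278 distal elements with adult H3K27ac, while 3351 were acetylated in both lists, and a further 6790 were acetylated in the fetal list only. The remaining 45928 distal elements held H3K4me1 without H3K27ac. Since H3K27ac and H3K4me3 peaks selected the members and H3K4me1 peaks helped to set their borders, presence, score and width of H3K27ac are given as descriptions. H3K27me3 took no part in the choice. The number depends on the peak threshold. Equal numbers of top-ranked H3K27ac peaks from both stages gave 1416 such elements, the 927 included. Peaks at or above the median score of each list gave 192, of which 18 overlapped the 927. In the full lists the others lie in regions with an H3K4me3 or fetal H3K27ac peak, so the rule excludes them there.

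The study compared HSCs of B6129SF1 mice from embryonic day 14.5 (E14.5) fetal liver with those from the bone marrow of adults aged 6 to 8 weeks. Both were sorted as lineage-negative, Sca1-positive, cKit-positive and CD135-negative cells, and 50000 cells went into each ChIP. That gate leaves out neither short-term HSCs nor all multipotent progenitors, so a peak belongs to the sorted mixture, and fewer cells carrying a mark cannot be told apart from less of the mark per cell. The labels give 2 replicates per mark and stage, but each list is titled as combined and was taken as 1 pooled call. There is thus no replicate error, no test between stages was possible, and a difference between stages cannot be told apart from one between libraries or peak calls.

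H3K27ac marks active enhancers and promoters, and H3K4me1 marks enhancers whether they are active or only primed. H3K4me3 stands at promoters, so a region without it is usually away from an active transcription start. H3K27me3 is laid down by Polycomb repressive complex 2 at silenced developmental genes. An enhancer that gains acetylation during development may have held H3K4me1 beforehand, may have lain in Polycomb chromatin, or may have had neither mark.

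In the deposited lists most of the elements acetylated only in the adult held a fetal H3K4me1 peak, and few lay in fetal H3K27me3. A fetal H3K4me1 peak was present at 665 of 927 elements, or 71.7% (68.7 to 74.6; such ranges are 95% Clopper-Pearson intervals, which cover counting error over regions only, and neighbouring regions are not independent). Over all distal elements the share was 95.7%, a figure that is high by construction, since an element without H3K27ac is in the set only through H3K4me1. Among elements acetylated at both stages the share was 96.8% (96.2 to 97.4), and among those acetylated in the fetal list only it was 85.9% (85.1 to 86.8). A fetal H3K27me3 peak was present at 14 of the 927, or 1.51% (0.828 to 2.52), against 5.68% of all distal elements, of which most are unacetylated. It was 0.507% (0.296 to 0.811) among elements acetylated at both stages and 0.928% (0.714 to 1.19) among those acetylated in the fetal list only, so the adult-only share was the highest of the acetylated classes, with an interval that overlapped that of the fetal-only class. In the largely separate set of 192 elements from better-scoring peaks, most of which the rule excludes in the full lists, it was 13%. There the H3K27me3 and H3K4me3 lists were also cut at their median score, so that share is not comparable with the others. Neither fetal mark was found at 256 elements, 27.6% (24.8 to 30.6). An absent peak says that the authors' threshold was not reached, not that the mark was absent.

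The adult lists gave lower shares. An adult H3K4me1 peak overlapped 263 of the 927 elements, 28.4% (25.5 to 31.4), against 10.9% of all distal elements, 51.7% (49.9 to 53.4) of those acetylated at both stages and 16.3% (15.4 to 17.2) of those acetylated in the fetal list only. The order of the stages cannot be read as a loss of H3K4me1, because the fetal H3K4me1 list holds 92339 peaks on these chromosomes and the adult list 12502. When equal numbers of top-ranked H3K4me1 peaks were taken from both stages, 24.1% of elements overlapped a fetal and 27.6% an adult H3K4me1 peak, so the order turned. Adult H3K27me3 overlapped 6 elements, 0.647% (0.238 to 1.40), where 3.73% of all distal elements had it. Among elements acetylated at both stages the share was 0.0895% (0.0185 to 0.261), and among those acetylated in the fetal list only 0.309% (0.192 to 0.472).

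**Figure D1:**
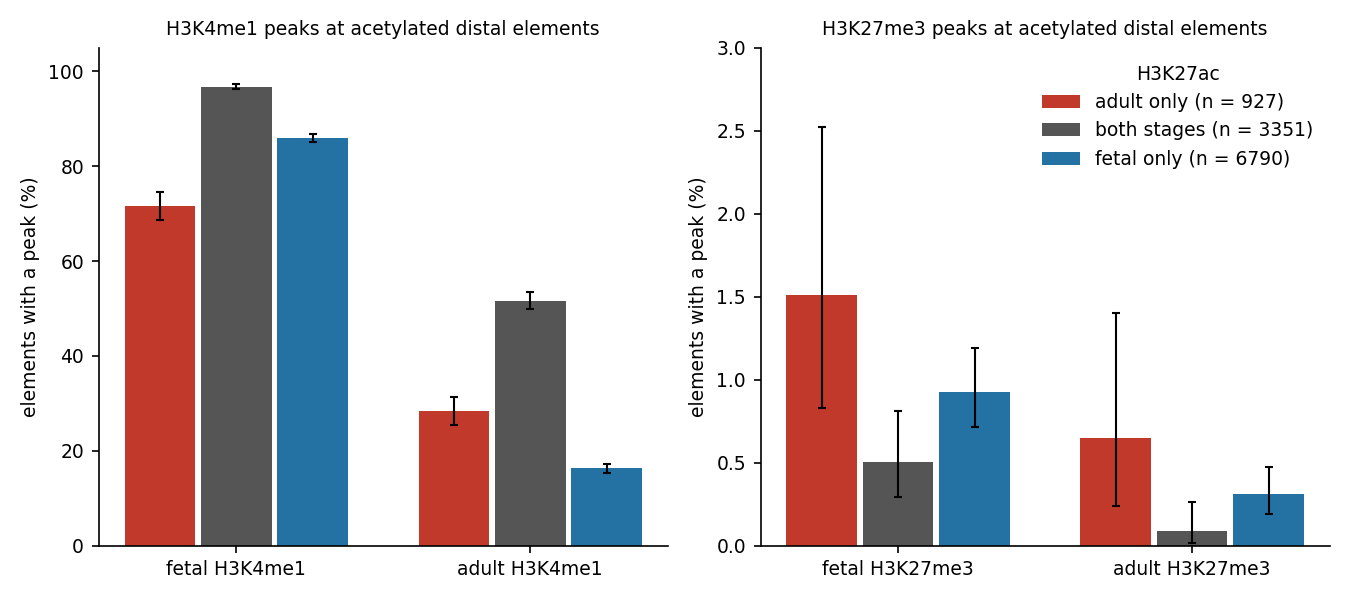
Bars give the percentage of distal elements with a fetal or adult H3K4me1 peak (left) or H3K27me3 peak (right), for elements with H3K27ac in the adult list only, in both lists and in the fetal list only; lines are 95% Clopper-Pearson intervals over elements. Fetal H3K4me1 stands at 71.7% of the adult-only elements against 96.8% of those acetylated at both stages, and the H3K27me3 axis ends at 3%.

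With both stages considered, H3K4me1 showed 4 patterns. The commonest was H3K4me1 in the fetal list only, at 435 elements (46.9%). That share was 45.4% among elements acetylated at both stages, 69.9% among those acetylated in the fetal list only and 86.9% over all distal elements. H3K4me1 in both lists was found at 230 elements (24.8%), against 51.4%, 16.0% and 8.80% in the same order. In the adult list only it was found at 33 (3.56%, 2.46 to 4.96), against 0.209%, 0.236% and 2.08%. The 229 elements (24.7%, 22.0 to 27.6) with no H3K4me1 peak at either stage compare with 2.95%, 13.8% and 2.22%. The last share is low by construction, since an element without H3K27ac is in the set only through H3K4me1. These 229 were defined by the adult H3K27ac peak alone, with a median width of 974 bp and a median score of 70.3. The 230 with H3K4me1 at both stages had a median width of 1666.5 bp and a median score of 80.9. The score is the authors' value for each peak in their list, has no stated unit and was compared only within the adult H3K27ac list.

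Element width moved with these shares. Of elements narrower than 1 kb, 128 of 260 held fetal H3K4me1, 49.2% (43.0 to 55.5). The share was 73.3% at 1 to 1.5 kb, 86.5% at 1.5 to 2 kb, 90.4% at 2 to 3 kb and 23 of 23 at 3 kb or more. Elements acetylated at both stages had 86.3%, 93.7% and 98.1% in the bins from 1 to 3 kb. The intervals of these classes did not overlap in the 1 to 1.5 kb bin (68.4 to 77.8 against 81.2 to 90.5) or in the 2 to 3 kb bin (83.4 to 95.1 against 97.2 to 98.8). They overlapped under 1 kb, where 17 of 22 elements acetylated at both stages held it (77.3%, 54.6 to 92.2). At 3 kb or more they overlapped too (99.2%, 98.5 to 99.6). Elements acetylated in the fetal list only had 55.3% (52.2 to 58.4) under 1 kb, which overlapped the adult-only interval. In the bins from 1 to 3 kb they had 82.5%, 93.5% and 97.1%, with intervals above the adult-only ones. For adult H3K4me1 the order of the adult-only and both-stages classes varied with width, and their intervals overlapped in every bin. The adult-only share was 10.8% (28 of 260) against 27.3% (6 of 22) under 1 kb, 24.8% against 21.8% at 1 to 1.5 kb, 39.2% against 29.1% at 1.5 to 2 kb, 55.3% against 47.3% at 2 to 3 kb, and 69.6% against 71.0% at 3 kb or more. A merged element is wider partly because an H3K4me1 peak lengthened it, so width is not independent of the mark.

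**Figure D2:**
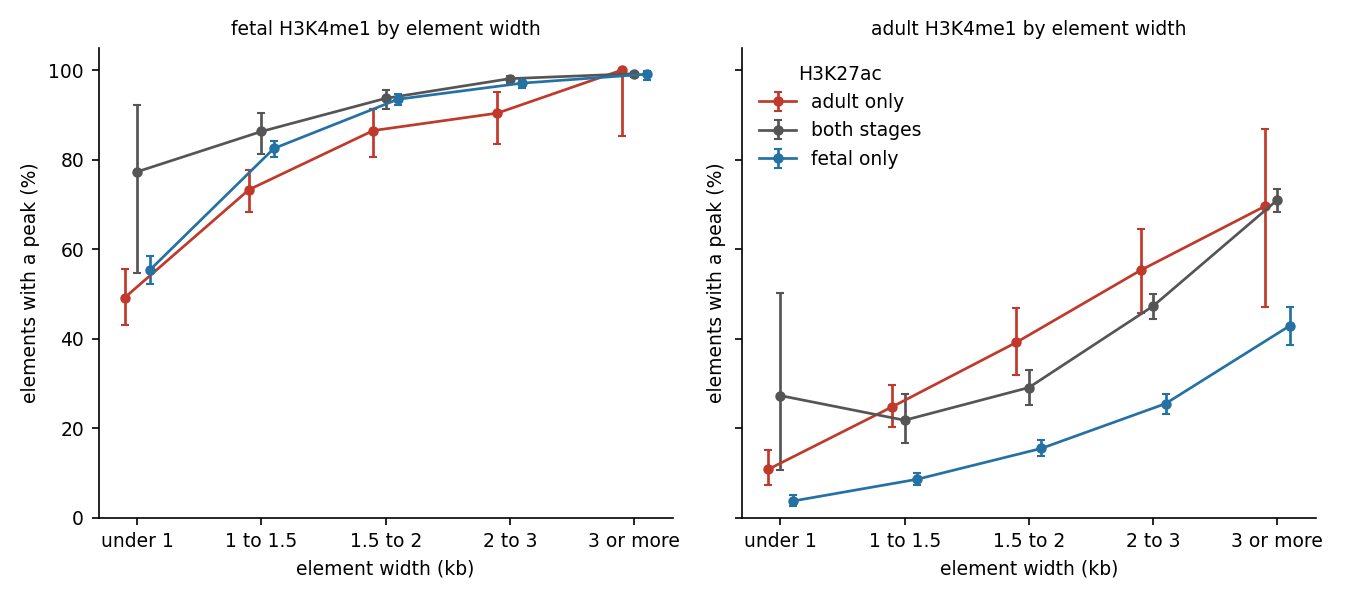
Points give the percentage of elements with a fetal (left) or adult (right) H3K4me1 peak in 5 bins of element width in kb, for the 3 acetylation classes, with 95% Clopper-Pearson intervals. In the adult-only class fetal H3K4me1 goes from 49.2% under 1 kb to 90.4% at 2 to 3 kb, and adult H3K4me1 from 10.8% to 55.3%.

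Where fetal H3K4me1 was present it covered most of the element. It took a median of 981 bp, or 77.1% of the element, and the best fetal H3K4me1 peak in the element had a median percentile of 74.9 among all fetal H3K4me1 peaks. The same percentile was 92.7 for elements acetylated at both stages and 80.7 for those acetylated in the fetal list only. Where present, fetal H3K4me1 covered a median of 78.6% and 72.4% of the element in those classes. Over all distal elements, most of them unacetylated H3K4me1 peaks, it covered 100%. Adult H3K4me1 peaks were short, with a median of 232 bp inside the element, or 15.8% of its width. When 200 bp of overlap was asked for, 17.3% of elements kept an adult H3K4me1 peak. Around the centre of the adult H3K27ac peak, fetal H3K4me1 covered 54.2% of bases in the 250 bp before the centre and 54.4% in the 250 bp after it. It covered 14.1% and 14.8% of the bases in the bins that end 2 kb away on either side. At elements acetylated at both stages it covered 82.4% and 83.0% of the central bins. Adult H3K4me1 covered 6.13% and 6.26% of the central bins of the 927 elements. The 262 elements without fetal H3K4me1 lay a median of 4878 bp from the nearest fetal H3K4me1 peak.

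**Figure D3:**
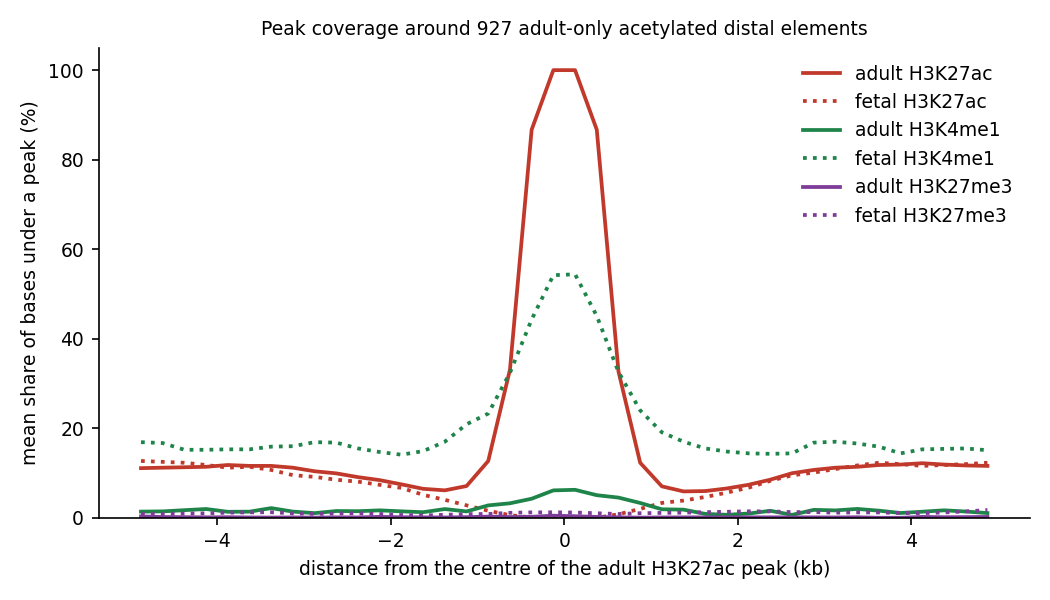
Lines give the mean percentage of bases under a peak in 250 bp bins within 5 kb of the centre of the best-scoring adult H3K27ac peak of the 927 elements; solid lines are adult and dotted lines fetal lists. Adult H3K27ac covers the centre and fetal H3K27ac is 0 there by the rule, while fetal H3K4me1 peaks at the centre with 54.4%.

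The 14 elements with fetal H3K27me3 were mostly among the weaker adult H3K27ac peaks. Their adult H3K27ac scores ran from 50.6 to 124 with a median of 57.7, against a median of 74.1 over all 927. Of the 14, 8 were among the 232 lowest-scoring of the 927, and the higher score quartiles held 2, 3 and 1, from low to high. Fetal H3K27me3 covered all of 7 elements and at least 50% of the width of 11, with a median of 756 bp. Of the 14, 8 also held fetal H3K4me1, 8 had no H3K27me3 peak in the adult list and 6 had one. No element had H3K27me3 in the adult list only (0 of 927, upper limit 0.397%). The most bases under fetal H3K27me3 were at chr10:79957313-79958571 (mm9, as are all positions here), where H3K27me3 and H3K4me1 of the fetal lists both covered the whole 1259 bp. In the adult lists that element had 952 bp of H3K27ac with a score of 73.85 and still 879 bp of H3K27me3. At chr7:13513099-13514100 fetal H3K27me3 covered all 1002 bp, and the adult lists had 718 bp of H3K27me3 beside 988 bp of H3K27ac. At chr15:85353241-85354210 fetal H3K27me3 covered all 970 bp with no H3K4me1 at either stage, and in the adult list H3K27ac covered the same 970 bp with no H3K27me3. At chr11:116098844-116099737 fetal H3K27me3 took 810 of 894 bp and fetal H3K4me1 517 bp, with neither mark in the adult lists.

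The surroundings of the elements were examined for H3K27me3 too. A fetal H3K27me3 peak was within 10 kb of 91 elements, 9.82% (7.98 to 11.9), against 5.76% (4.99 to 6.60) of elements acetylated at both stages and 6.57% (5.99 to 7.18) of those acetylated in the fetal list only. Within 50 kb the shares were 31.7% (28.7 to 34.8), 26.2% and 25.6%. For adult H3K27me3 within 10 kb they were 2.70% (1.75 to 3.96), 1.61% (1.21 to 2.10) and 2.93% (2.54 to 3.36), and the interval of the adult-only class overlapped both others. The shares over all distal elements were not computed for these distances. Direct overlap with fetal H3K27me3 was 5.68% over all distal elements against 1.51% of the 927. Nearness to H3K27me3 is thus compared among acetylated classes only.

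The elements were narrower than other acetylated distal elements, and their H3K27ac peaks ranked low in the adult list. The median width was 1242 bp (quartiles 974 and 1670.5 bp, range 395 to 5228 bp). It was 2665 bp for elements acetylated at both stages and 1613.5 bp for those acetylated in the fetal list only. For the 192 elements from better-scoring peaks, most of which the rule excludes in the full lists, it was 2235 bp. Over all distal elements, most of them unacetylated H3K4me1 peaks, the median was 418 bp. A single adult H3K27ac peak was found in 918 of the 927, and in 456 (49.2%) it covered the whole element. The best peak had a median width of 1032 bp, against 1465 bp in elements acetylated at both stages. Its score had a median of 74.1 (quartiles 58.9 and 102, range 50 to 749), where peaks of at least 50 are listed. The median percentile among the 17834 adult H3K27ac peaks of chromosomes 1 to 19 was 12.9, and 28.2 for elements acetylated at both stages. Of the 927, 749 (80.8%) were below the 25th percentile of the adult list, 18 stood at or above its median, and none reached the 75th percentile, where 107 (3.19%) of the elements acetylated at both stages stood.

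Fetal H3K4me1 varied little with that score, and adult H3K4me1 more. When the 927 were split by score at their quartiles, from low to high, the share with fetal H3K4me1 was 67.2%, 71.2%, 72.2% and 76.3%, with intervals that all overlap (60.8 to 73.2 in the lowest, 70.3 to 81.6 in the highest). The share with adult H3K4me1 was 23.3%, 23.2%, 28.7% and 38.4%, and the intervals of the lowest (18 to 29.3) and highest (32.1 to 45.0) groups did not overlap. Median widths went from 1001.5 bp to 1699 bp over the same groups, so width moved with the score, and its part in this was not tested. At matched score the gap in fetal H3K4me1 to elements acetylated at both stages stayed. It was 68.3% against 95.0% at scores of 50 to 60, 71.3% against 95.7% at 80 to 120, and 80% against 97.6% at 120 to 250.

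**Figure D4:**
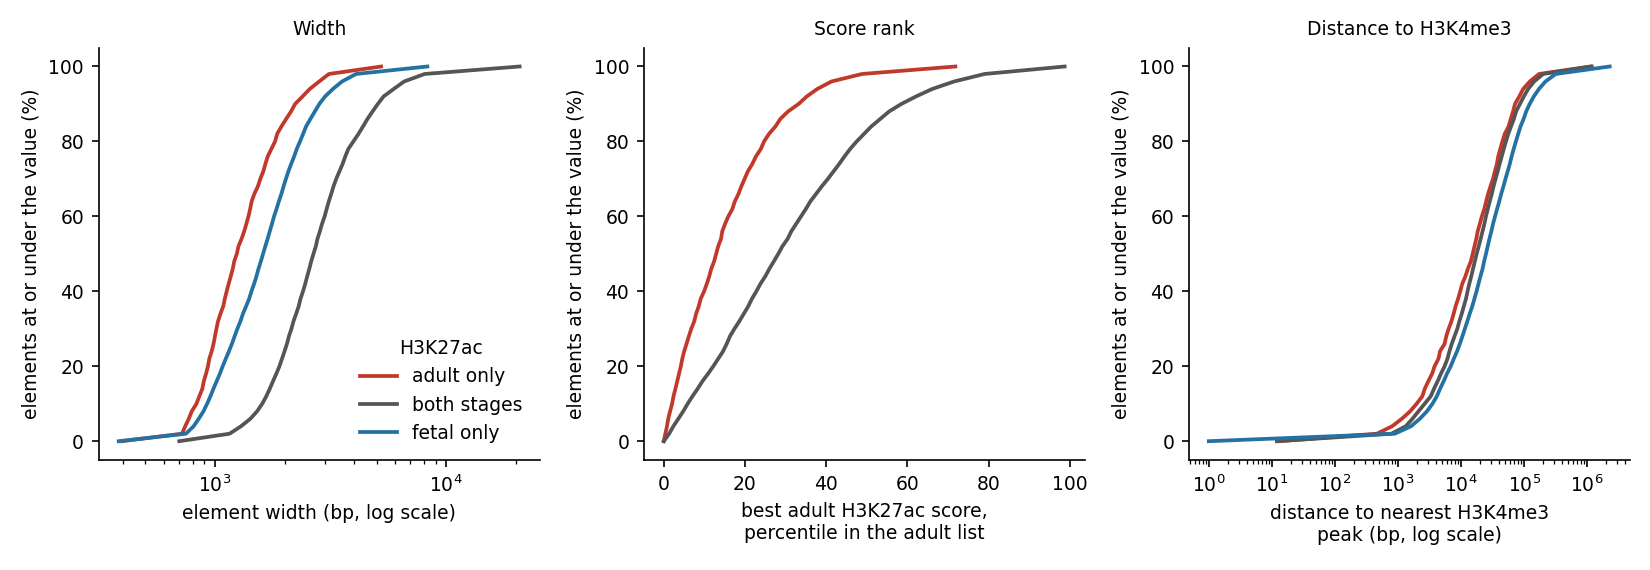
Curves give the percentage of elements at or under a value of element width in bp (left, log axis), of the percentile of the best H3K27ac score in the adult list (middle) and of the distance to the nearest H3K4me3 peak in bp (right, log axis). The adult-only curve lies to the left in width and in score rank, with medians of 1242 bp and 12.9, and closer to the other classes in distance, with a median of 15280 bp.

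The 10 elements with the best adult H3K27ac scores were 2144 to 3289 bp wide, and H3K27ac covered all of 9 of them. Fetal H3K4me1 was present at 7, adult H3K4me1 at 5 and fetal H3K27me3 at none, and at 9 the nearest H3K4me3 region was acetylated at both stages. The best was chr17:56952554-56955842, with a score of 749.29 (percentile 71.8 of the adult list) over 3289 bp and only 267 bp of fetal H3K4me1. It was followed by chr4:154517382-154519795 with 699.53 and 363 bp of fetal H3K4me1, and by chr1:133021305-133024263 with 669.45 and 1301 bp. At chr6:124642939-124645193 the score was 666.54 without any fetal H3K4me1, and 318 bp of adult H3K4me1 were called there. At chr13:49294685-49296828 the score was 653.09, and both fetal (1025 bp) and adult (708 bp) H3K4me1 were called. A second element of chromosome 17, chr17:56958363-56960586, had a score of 564.61. After these the score fell to 411.27 at chr10:126536295-126539117, which held 1865 bp of fetal H3K4me1. It was 396.67 at chr8:97065976-97068874, with no fetal and 282 bp of adult H3K4me1, and 365.64 at chr17:31857862-31860283.

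The widest elements were long stretches of fetal H3K4me1 with adult H3K27ac in part of them. The widest, chr17:28159268-28164495, spanned 5228 bp, with 4627 bp of fetal H3K4me1 and 4340 bp of adult H3K27ac. At chr17:56159713-56164334 a single fetal H3K4me1 peak covered all 4622 bp, while adult H3K27ac took 905 bp with a score of 50.81, close to the lowest listed. At chr1:74044630-74048816 fetal H3K4me1 took 3661 of 4187 bp and adult H3K27ac 3280 bp. At chr11:3209835-3214015 and chr1:135786251-135790348 fetal H3K4me1 took 4128 and 3966 bp, and adult H3K27ac 1139 and 1746 bp. In 4 of these 5 elements adult H3K4me1 was called too, over 343 to 790 bp in all.

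Distances from the 927 elements to acetylated chromatin of the fetal stage were measured for this class only. Whether they differ from those of other distal elements was not tested. The nearest fetal H3K27ac peak was a median of 6931 bp away (quartiles 2374.5 and 18916 bp), within 1 kb at 110 elements (11.9%) and within 5 kb at 389 (42.0%). At 80 elements (8.63%) fetal H3K27ac peaks stood on both sides within 5 kb. The rule turns on this border, and the elements just inside it were chr5:108393734-108395020, which lay 12 bp from a fetal H3K27ac peak, chr5:53791390-53792551 (19 bp), chr5:66712794-66714216 (23 bp), chr14:65060938-65061674 (32 bp) and chr17:9179649-9180720 (46 bp). Among elements acetylated at both stages, the fewest bases of fetal H3K27ac were at chr4:62294657-62295759 (507 bp), chr3:132410286-132411093 (599 bp) and chr2:27594833-27597459 (644 bp). Next were chr8:125040640-125043344 (668 bp) and chr15:75703584-75704283 (691 bp). Fetal H3K27ac peaks were part of the merge, so these bases are whole fetal peaks and do not measure closeness to the border. The last element, of 700 bp, also had 686 bp of adult H3K27ac. At the level of peaks, 995 of the 17834 adult H3K27ac peaks (5.58%) overlapped neither H3K4me3 nor fetal H3K27ac, and 937 of these lay in the 927 elements. The other 58 were joined through H3K4me1 to a region with H3K4me3 or fetal H3K27ac.

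The elements stood slightly nearer to H3K4me3 than other acetylated distal elements. The median distance to an H3K4me3 peak of either stage was 15280 bp (quartiles 4979.5 and 37718 bp), against 17629 bp for elements acetylated at both stages and 24823 bp for those acetylated in the fetal list only. Over all distal elements, most of them unacetylated, the median was 17986 bp and the lower quartile 5428 bp. Their 10th percentile was 1396.5 bp, below the 1974.2 bp of the 927. At short range the 927 were thus not nearer to H3K4me3 than distal elements at large. The median for the adult-only class was 18088 bp when peaks within 1 kb were merged first. For the 192 elements from better-scoring peaks it was 28016 bp. There the H3K4me3 lists were also cut at their median score, so that distance is not comparable with the others. Within 5 kb lay 232 elements, 25% (22.3 to 27.9). The share was 18.6% (17.3 to 19.9) for elements acetylated at both stages and 15.2% (14.3 to 16.0) for those acetylated in the fetal list only. Within 1 kb lay 48 elements, 5.18% (3.84 to 6.81), against 2.60% and 2.44%, so the flank of a promoter cannot be told apart from a separate enhancer at these elements. Within 50 kb lay 761 elements, 82.1%.

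At those 761 elements the nearest H3K4me3 region, merged over both stages, mostly carried H3K27ac at both stages, as it did for the other acetylated classes. It carried H3K27ac at both stages for 618 (81.2%), in the adult list only for 53 (6.96%, 5.26 to 9.01), in the fetal list only for 21 (2.76%, 1.72 to 4.19) and in neither for 69 (9.07%). H3K27ac at both stages was found at the nearest region for 82.8% of elements acetylated at both stages and 75.1% of those acetylated in the fetal list only, and at 65.8% of all 17586 H3K4me3 regions. Adult-only acetylation of the nearest H3K4me3 region was found at 4.55% (3.79 to 5.41) of elements acetylated at both stages and 3.15% (2.67 to 3.68) of those acetylated in the fetal list only, and at 5.61% of all H3K4me3 regions. The nearest H3K4me3 region carried H3K27me3 in the fetal list only for 74 elements, 9.72% (7.71 to 12.1), against 6.13% and 6.74% in the other classes and 8.23% of all H3K4me3 regions. The H3K4me3 itself was called in the adult list only for 72 (9.46%, 7.48 to 11.8), against 6.65% (5.73 to 7.67) for elements acetylated at both stages, 7.50% (6.76 to 8.28) for those acetylated in the fetal list only and 6.71% of all H3K4me3 regions. These shares count elements, and elements near the same region share it.

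Another element of the same class lay within 50 kb of 268 of the 927, 28.9% (26.0 to 31.9), and the median distance to the next was 215754 bp. In the other, larger classes more elements had such a neighbour of their own class. The share was 54.8% of the 3351 elements acetylated at both stages (median distance 37273 bp). It was 62.2% of the 6790 acetylated in the fetal list only (27418.5 bp). An element of the adult-only class lay within 50 kb of 20.7% (19.3 to 22.1) of elements acetylated at both stages. For those acetylated in the fetal list only it was 9.69% (9 to 10.4). Of the 927 elements, 51.8% lay within 50 kb of an element acetylated at both stages and 49.2% within 50 kb of one acetylated in the fetal list only. Gaps could be very short, with 40 elements within 1 kb of another and a smallest gap of 15 bp. When peaks within 1 kb were merged first, the share with a neighbour within 50 kb was 18.5%. Among the 192 elements from better-scoring peaks, most of which the rule excludes in the full lists, it was 15.6%. Joining elements with gaps of up to 50 kb gave 659 single elements and 118 clusters with 268 elements. Of these, 92 clusters held 2 elements, 22 held 3, 2 held 4 and 2 held 5.

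The cluster at chr6:88062724-88116877 held 5 elements over 54154 bp and no fetal H3K27ac peak anywhere between its ends. The scores of the 5 in order along the chromosome were 75.80, 243.91, 76.01, 112.97 and 254.15. Fetal H3K4me1 was called at 3 of them, those scoring 75.80 (581 bp), 76.01 (272 bp) and 112.97 (850 bp), and not at the others, which had the best scores. No adult H3K4me1 peak lay in any of the 5, and no element had fetal H3K27me3, although 1 fetal H3K27me3 peak stood between them. That peak overlapped H3K4me3 peaks of both stages, and a further fetal H3K4me3 peak also lay between the elements. The cluster at chr8:122863427-122951724 had the same number of elements over 88298 bp and a different setting. All 5 held fetal H3K4me1 (869 to 1972 bp), 3 held adult H3K4me1, and 4 fetal H3K27ac peaks and 2 elements acetylated at both stages lay among them. Scores there ran from 59.73 to 184.69, and the nearest elements stood 38 bp from an H3K4me3 peak and 198 bp from a fetal H3K27ac peak.

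The next clusters held 4 elements each. At chr17:56948956-56960586 they covered 8638 of 11631 bp, with scores of 221.74, 70.85, 749.29 and 564.61, and so included 2 of the 10 best-scoring elements. Only the pair with the best scores held fetal H3K4me1 (267 and 528 bp), no adult H3K4me1 was called, and the nearest fetal H3K27ac and H3K4me3 peaks lay 8705 and 8288 bp from the cluster. At chr4:129722402-129759861 the scores were 103.59, 53.28, 81.68 and 211.93. The elements scoring 53.28 and 81.68 lay under the same fetal H3K27me3 peak (483 and 735 bp), no adult H3K27me3 peak lay within the cluster, and the first had 909 bp of fetal and 183 bp of adult H3K4me1. An H3K4me3 peak called in the adult list only stood 688 bp from the first element, and that region also had H3K27ac in the adult list only and H3K27me3 in the fetal list only.

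**Figure D5:**
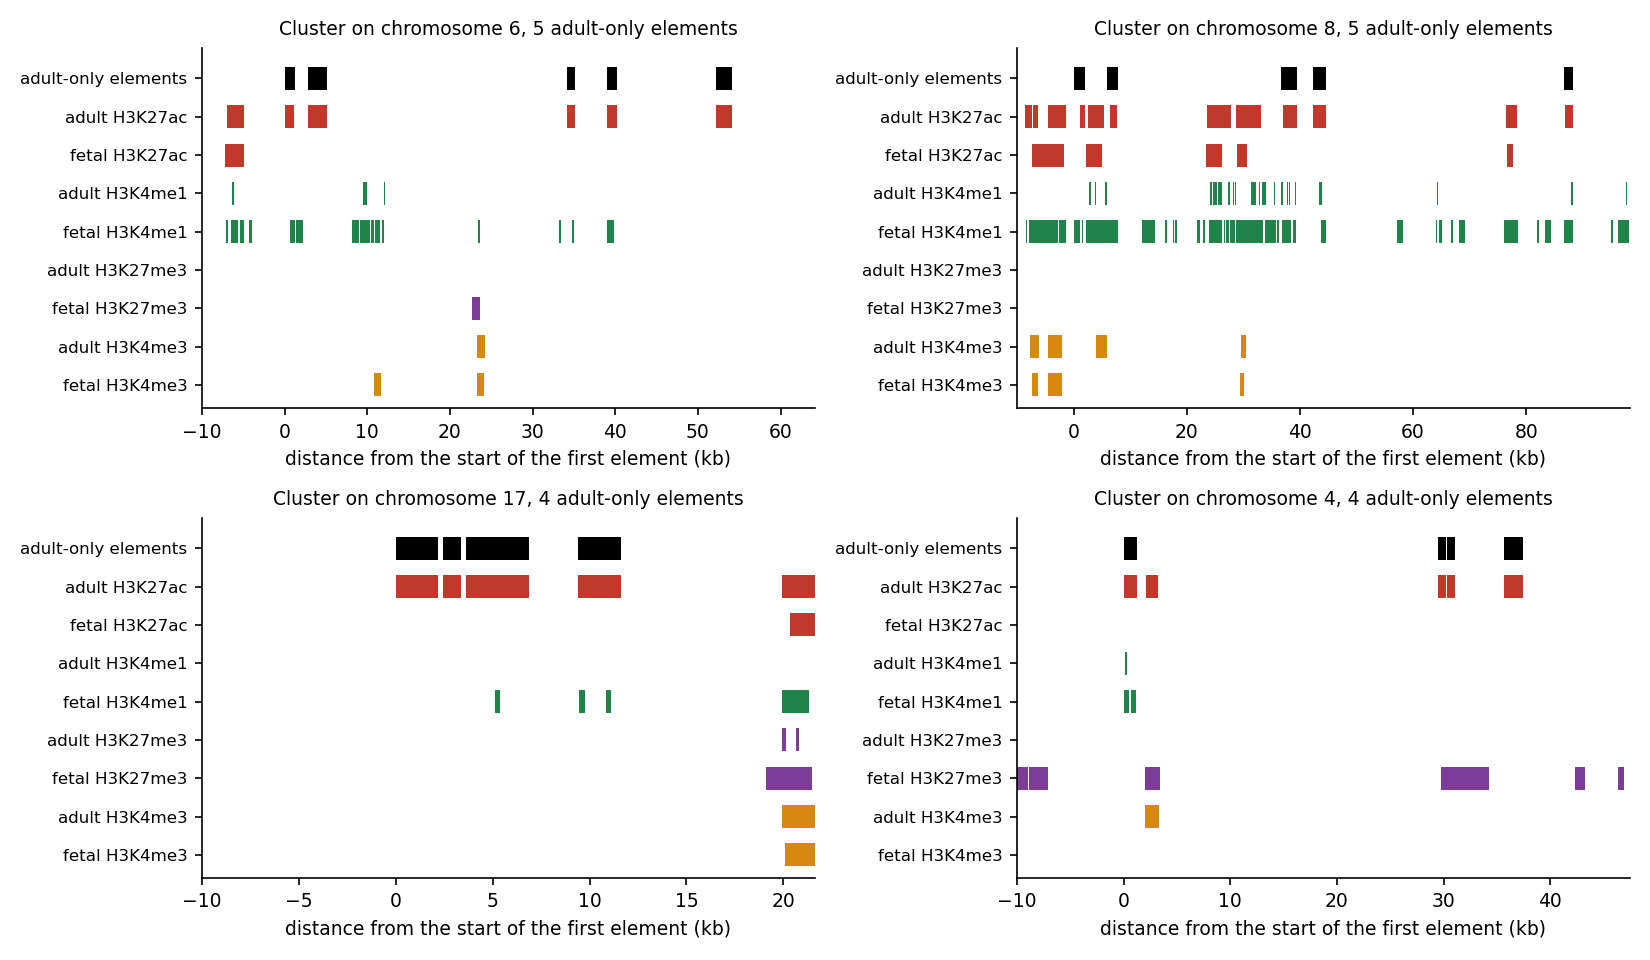
Blocks show the elements (black) and the peaks of each mark and stage in the 4 clusters with most elements and 10 kb on either side, against the distance in kb from the start of the first element. The clusters on chromosomes 6, 17 and 4 hold no fetal H3K27ac peak between their ends, and the one on chromosome 8 holds 4.

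Across chromosomes the class made up similar shares of the adult-acetylated distal elements, with 1 exception. On chromosome 17 it was 77 of 234, 32.9% (26.9 to 39.3), and over the other chromosomes 850 of 4044, 21.0% (19.8 to 22.3). The lowest share was on chromosome 19, with 23 of 154, 14.9% (9.71 to 21.6). Chromosome 17 was singled out as the highest of 19 after its value was seen. Along it, among stretches of 10 Mb with at least 20 adult-acetylated distal elements, the share was 31.8% (13.9 to 54.9) at 0 to 10 Mb, 37.3% (24.1 to 51.9) at 20 to 30 Mb and 37.5% (21.1 to 56.3) at 30 to 40 Mb. It was 18.8% (7.21 to 36.4) at 40 to 50 Mb and 25% (13.6 to 39.6) at 80 to 90 Mb. The intervals all overlap. At 50 to 60 Mb, where the cluster above lies, it was 62.5% (10 of 16, 35.4 to 84.8).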

How the data were processed

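ChIP-seq of 4 histone marks was represented by 8 peak lists deposited by the authors, 1 per mark and stage, each taken as a call on 2 pooled replicates because it is titled as combined. Alignment with Bowtie2 2.2.2 to mm9 is given per the submitters' processing notes. The deposited peaks have names that start with MACS. The caller's version, settings and control are not given in the sources used here. Each score is the authors' value, without a stated unit, listed from 50 upwards, and was used only within its list. Depth is unknown. Inputs, coverage tracks and single replicates were not analysed here, and no annotation or genome of mm9 was used, so elements are given by position without genes or sequences.

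Elements were built as described above from peaks on chromosomes 1 to 19. Distances are edge to edge. Shares have exact Clopper-Pearson 95% intervals. By rule, the elements named were the 10 best-scoring, the 5 widest, the 5 with most fetal H3K27me3 and the 5 nearest to a fetal H3K27ac peak. Also named were the 5 elements acetylated at both stages with the fewest bases of fetal H3K27ac. The clusters with most elements were named too (4, because of a tie). Of the 10, 1 is given without position, as is 1 of the 5 with H3K27me3. The members and lists were chosen with earlier results of these data known. Interval code was tested on simulated data with planted overlaps. Alternatives changed the peak threshold, list size, merging, overlap, window and distances. Python 3.11.15, numpy 2.4.6, pandas 2.3.3, scipy 1.17.1 and matplotlib 3.10.9 were used.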

Additional observations from a re-analysis of the deposited data

Results flagged for a closer look

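The X chromosome was outside the comparison. By the same rule 4 of its 348 distal elements were acetylated in the adult list only, or 1.15%, against 1.63% on chromosomes 1 to 19. They are listed because X was left out of the comparison, not because the share stands apart. Their adult H3K27ac scores were 82.5, 90.3, 73.0 and 113. The first 3 lay together, at chrX:99232352-99233313, chrX:99236984-99237950 and chrX:99237998-99238938, and the fourth at chrX:137063219-137064559. Fetal H3K4me1 was called at 1 of them, over 211 bp, and fetal H3K27me3 at none.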

How the results depend on the processing

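Of 75 alternative values for the 9 main results, 51 stayed within the interval of the main value (counts within 1.5 times) and 24 did not. Keeping only peaks at or above each list's median score gave 192 elements, of which 18 overlapped the 927. The others are excluded by the rule in the full lists, so this is largely another set. Of the 192, 13% had fetal and 3.12% adult H3K27me3, and 15.6% had a neighbour within 50 kb. Their median width was 2235 bp. Their distance to H3K4me3, measured to H3K4me3 lists cut in the same way, was 28016 bp. Equal numbers of H3K27ac peaks gave 1416 elements, which included all 927, with fetal H3K4me1 at 78.3%, adult H3K4me1 at 31.7%, a width of 1326.5 bp, neighbours at 36.9% and a score percentile of 14.2. Merging peaks within 1 kb gave adult H3K4me1 at 32.4%, a width of 1450 bp, a distance of 18088 bp and neighbours at 18.5%. Adult H3K27ac peaks taken as elements had a width of 1031 bp. Asking for 200 bp of overlap gave adult H3K4me1 at 17.3%, and a fixed 2 kb window fetal H3K4me1 at 75.5%. Neighbours were found at 16.8% within 0.25 times the main distance and 39.5% within 100 kb. The distance to fetal H3K4me3 alone was 17236 bp. Equal numbers of H3K4me1 peaks, an alternative chosen after seeing the data, gave fetal H3K4me1 at 24.1% and a width of 1139.5 bp. The cause of these shifts was not tested. Also excluding H3K4me3 or fetal H3K27ac within 1 kb left 879 and 817 elements and moved none of the 9 results. No paired analysis was possible because the 2 replicates of a mark come as 1 joint list, which also kept any replicate from being left out. Without read depth, a missing peak cannot be told apart from a shallow library.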

Other observations

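In windows of 1 Mb, 338 windows held 1 of the 927 elements, 8 held 6, and 1 window, on chromosome 10, held 7. The next element was over 1 Mb away for 199 (21.5%). On unplaced contigs 1 of 18 distal elements was acetylated in the adult list only. Among the 33 elements with H3K4me1 in the adult list only, 6 had another element of the class within 50 kb, 18.2% (6.98 to 35.5), and among the 229 with H3K4me1 in neither list 65 did, 28.4% (22.6 to 34.7).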
